A study of Caenorhabditis elegans with 2 samples.

Results

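Aminoacyl-tRNA synthetases attach each amino acid to the tRNAs that carry it, and so set the genetic code at the ribosome. Cytosol and mitochondria each need charged tRNAs, and the mitochondrial enzymes come from a second gene or a second form of the same gene; mitochondrial glutamine tRNA is instead charged by way of the glutamate enzyme. The enzymes fall into 2 unrelated classes by the fold of their catalytic domain, and their genes are transcribed by RNA polymerase II, while the tRNA genes they serve are transcribed by RNA polymerase III. In C. elegans many messenger RNAs are trans-spliced: a short leader replaces the original 5′ end, and genes in an operon share one promoter, so an annotated 5′ end can lie well downstream of where transcription starts.

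The synthetase genes of C. elegans were taken as the protein-coding genes named with 1 letter, "ars", a hyphen and 1 digit, such as fars-1. There were 33 of them among 19985 protein-coding genes of assembly WBcel235 (ce11). Of these, 32 carried the name in the Ensembl annotation and mars-2 carried it in RefSeq only. The valine enzyme gene glp-4 falls outside this naming rule and cars-2 is annotated as a pseudogene, so neither is a member. The members lie on chromosomes I (10 genes), IV (8), III (6), II (5) and V (4). They run from 1764 to 12395 bp with a median of 3605 bp, against a median of 2026 bp for all protein-coding genes, so shares are also given for the 10786 protein-coding genes within the members' length range.

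The data are chromatin immunoprecipitation with sequencing (ChIP-seq), done on whole young adult worms of mixed sex against AMA-1, the largest polypeptide of RNA polymerase II. Both samples, labelled biological replicates 1 and 2, form 1 group of strain YL489: the unc-119(ed3) III mutation, together with the insertion vrIs104, whose pie-1 promoter expresses an AMA-1 joined to GFP and FLAG, ahead of the PUF-5 3′UTR, with unc-119 (+) as rescue. The pie-1 promoter is active in the germline. The labels give ama-1 as the antibody, but no source used here says whether the tag or the native protein was bound, so germline and whole-body occupancy cannot be told apart. There is no second condition, and the control experiment was not analysed here. The deposited lists hold 28020 candidate regions for replicate 1, 30000 for replicate 2, 30000 for the pooled reads, and 887 optimal peaks that passed the irreproducible discovery rate (IDR) procedure. The 887 optimal peaks are the 887 strongest pooled regions by the authors' signal value, whose scale is not given, and rank 1 below means the strongest region of a list. A region belonged to a gene when its summit lay in the gene or within 500 bp of it. Read counts are not in these lists, so the depth is unknown. With 2 replicates of 1 group and no second group, no test between groups was possible, and values are given for each replicate.

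Many members begin right after the letters at which trans-splicing joins the leader. The motif TTNCAG, searched on the gene's own strand as the last bases before the annotated 5′ end, was there for 15 of 33 members (45.5%) and for 3791 of 19973 nuclear protein-coding genes. Its commonest form TTTCAG, which is contained in it, preceded 9 members (27.3%) and 12.3% of all. The bare CAG, which both motifs contain, preceded 20 members (60.6%) and 22.1% of all. The following 30-base runs, from the RefSeq genome of WBcel235 and written 5′ to 3′ on the gene's strand, end at the base before the annotated 5′ end, with the motif in capitals. They show 4 members that have it and 2 that lack it (ears-2 and aars-1).
fars-3, chrII:8464818-8464847, plus strand: atttccatagttaattcattatatTTTCAG
hars-1, chrIV:10858927-10858956, plus strand: ctttgaacaattttgcaaataaacTTGCAG
dars-1, chrIII:9491216-9491245, minus strand: attggttttatagatgctaatttgTTTCAG
dars-2, chrV:12048715-12048744, plus strand: tagtttgtcaatttgaaatatttaTTGCAG
ears-2, chrIV:390469-390498, minus strand: cgcattgcgaatgactgcgcggtgacttgc
aars-1, chrII:11464498-11464527, minus strand: agaggaaggaaacactccgccgcgccattt
A match describes these letters and is not a measured splice site, and its absence from a window says nothing about trans-splicing of that gene.

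Nearly every synthetase gene held AMA-1 candidate regions, and few held a peak of the optimal list. The authors label the candidate lists as peaks and background, so a candidate region need not be a peak. Over the members' best pooled regions, −log10 of the q-value ran from 0.456 at ears-1 to 3.90. A pooled candidate region was present at 32 of 33 members (97.0%), against 46.3% of all protein-coding genes and 53.5% of those in the length range; dars-2, the mitochondrial aspartate enzyme gene, had none. Replicate 1 had a region at 32 members (51.0% of all genes) and replicate 2 at 31 (52.5% of all genes). Both replicates had one at 30 of 33 members (90.9%), against 39.2% of all and 47.3% of genes in the length range. The 3 members short of that were dars-2 and vars-1, the valine enzyme gene, with no region in replicate 2, and sars-1, the cytosolic serine enzyme gene, with none in replicate 1. An optimal peak was present at 2 of 33 members (6.06%), against 4.54% of all genes and 5.15% of those in the length range, which is a share near the background. Both were subunit genes of the same enzyme, cytosolic phenylalanyl-tRNA synthetase.

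The members' strongest pooled regions ranked from 69 to 24784 with a median of 5858 over 32 members, close to the median of 6656 over the 9249 protein-coding genes with a pooled region and 6588 in the length range. The deposited column 9, −log10 of a q-value, stood at its ceiling of 3.90 for the 3971 strongest pooled regions. At that ceiling, 11 of 33 members (33.3%) had a region, against 16.2% of all genes and 18.6% in the length range. Regions at the ceiling of the replicate's own list, in both replicates, were found at 7 members (21.2%), against 7.64% of all and 8.85% in the length range. These were fars-1, fars-3, aars-2, yars-1, ears-2, hars-1 and dars-1. The 2 replicates need not share a site for this count, and at ears-2 the regions lay 1244 bp apart. This ceiling was taken up as a limit after values had been seen.

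**Figure D1:**
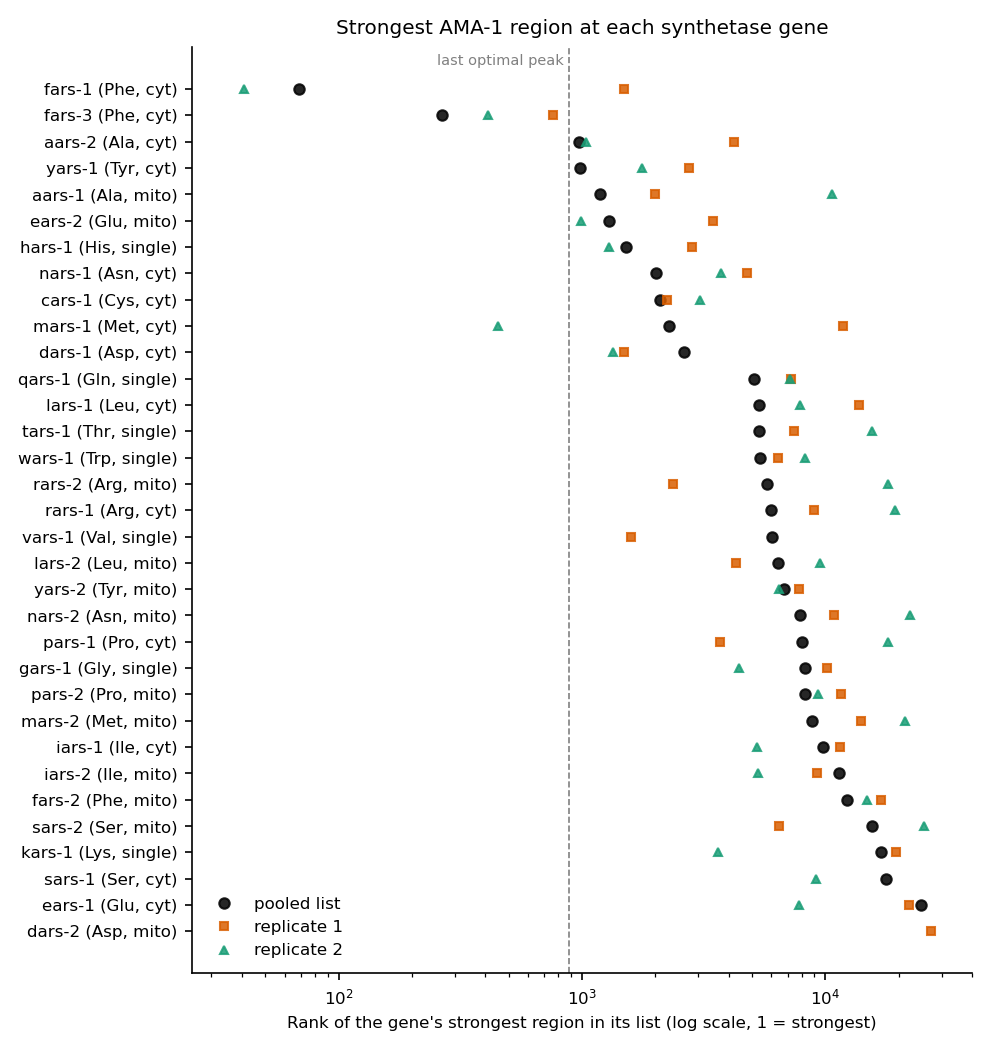
Rank of the strongest region at each of the 33 synthetase genes (horizontal log axis, 1 is the strongest) in the pooled list (circles), replicate 1 (squares) and replicate 2 (triangles); labels give the amino acid and whether the gene is taken as cytosolic, mitochondrial or single for its amino acid. The pooled circles of fars-1 (69) and fars-3 (266) lie left of the dashed line at rank 887, the last optimal peak, and the other 30 members with a pooled region lie right of it.

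Cytosolic phenylalanyl-tRNA synthetase is built from alpha and beta subunits, encoded by fars-1 and fars-3, and the 2 genes held their peaks in different places. The fars-1 peak (chromosome I, 6212812 to 6212948, 137 bp wide) had a pooled rank of 69 and a signal value of 105. In replicate 1 the region ranked 1484 with a signal value of 16.2, and in replicate 2 it ranked 41 with 82.4. The rank was thus much higher in replicate 2, 36.2-fold by the ratio of ranks, although the 2 summits lay 34 bp apart. The scale of the signal values is not given, so they were not compared between lists.

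The fars-1 summit, at position 6212886, lay in an intron, 1799 bp past the gene's annotated 5′ end and 905 bp before its 3′ end. It fell 6 bp inside the annotated tRNA pseudogene T08B2.t1 (6212821 to 6212892, 72 bp), which overlaps one end of the annotated small nucleolar RNA gene T08B2.13. T08B2.t1 occurs once in the genome as an exact sequence, and the nearest nuclear tRNA gene, a threonine tRNA gene, differs from it by 24 single-base edits. The B box is the element by which tRNA genes bind the RNA polymerase III factor TFIIIC. Its core letters GGTTCNA were found in T08B2.t1, as was the longer consensus of 11 letters that contains them. T08B2.t1 lies wholly within the fars-1 peak, so the peak holds both matches too, which is no separate find. On either strand the core was in 308 of the 858 nuclear optimal peaks (35.9%) and the longer form in 250 (29.1%). On the gene's own strand they were in 530 (86.6%) and 503 (82.2%) of 612 nuclear tRNA genes. No pooled region lay within 500 bp of the fars-1 5′ end; the gene's other pooled region ranked 15252. Reads at the intron cannot be assigned between fars-1 and the small RNA genes inside it.

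The fars-3 peak (chromosome II, 8464417 to 8464696) lay upstream of the gene. Its pooled rank was 266 with a signal value of 60.8, and the region ranked 758 in replicate 1 (signal value 20.3) and 411 in replicate 2 (33.9), with summits 16 bp apart. Both replicates thus placed a region among their 887 strongest at the same site. The summit at 8464557 was 291 bp before the annotated 5′ end of fars-3 and 45 bp past the 3′ end of zyg-9, a microtubule-associated spindle protein gene that runs in the same direction 335 bp upstream. One position is therefore near the end of zyg-9 and near the start of fars-3, and the lists do not assign the signal to either. The peak held GGTTCNA but not the longer B box consensus on either strand. It was the one synthetase peak of the optimal list outside an annotated tRNA, snoRNA or snRNA gene or tRNA pseudogene. For that reason the 30 bases around its summit are shown, with the summit base in capitals.
fars-3, chrII:8464542-8464571, plus strand: tctcaataaaaggcgGattagcggatttta
The mitochondrial phenylalanine enzyme, a single chain in humans and encoded here by fars-2, stood far lower: its best pooled region ranked 12274 (signal value 12.6) in an intron, 6328 bp past the 5′ end. Its best replicate regions ranked 16953 and 14870 with summits 7462 bp apart.

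The next members fell just short of the optimal list, whose weakest peak had a signal value of 37.7. The cytosolic alanine enzyme gene aars-2 ranked 975 with 36.4, and yars-1, the tyrosine enzyme gene, ranked 976 with 36.4. Both summits lay beyond the 3′ end. For aars-2 it was 169 bp past the end, where replicate 1 ranked 4192 (signal value 10.6) and replicate 2 ranked 1647 (19.7). The best aars-2 region of replicate 2 lay elsewhere, 286 bp upstream of the gene, and ranked 1035 (23.3). For yars-1 the summit was 121 bp past the end and inside ekl-4, an overlapping gene; replicate 1 ranked 2738 (12.8) and replicate 2 ranked 1756 (19.2), with summits 37 bp apart.

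For hars-1, the histidine enzyme gene, the best pooled region (rank 1514, signal value 30.9) also lay downstream, 185 bp past the 3′ end and 67 bp into rbm-22, an RNA-binding protein gene that starts 117 bp after hars-1 on the same strand. Replicate 1 ranked it 2819 (12.7) and replicate 2 ranked it 1288 (21.4). It was the only pooled region of hars-1, and none lay within 500 bp of the hars-1 5′ end. For dars-1, the cytosolic aspartate enzyme gene (pooled rank 2621), the summit also lay inside another gene. It was 123 bp past the dars-1 3′ end and within the neuropeptide-like gene nlp-36, which runs the other way and overlaps that end, 322 bp after its start and nearer its end than its start. The replicates ranked this site 1481 and 1342. The bases around these summits are given on the synthetase gene's strand, with the summit base in capitals, to show sites shared with a neighbour.
hars-1, chrIV:10861454-10861483, plus strand: aaattgggaagattcAgattttccaattct
dars-1, chrIII:9489039-9489068, minus strand: cagtttgtggaatttGgcgggcgaccattg

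The best region of ears-2, the mitochondrial glutamate enzyme gene, lay between divergent starts (pooled rank 1293, signal value 32.6). Its summit was 36 bp upstream of ears-2 and 56 bp upstream of uncp-18, which is transcribed the other way from a start 91 bp off. Replicate 2 ranked this site 986 (23.7), whereas replicate 1 ranked it 12746 (5.48) and had its own best region, at rank 3439, 1244 bp away. The 2 replicates thus disagreed on the site by 12.9-fold in rank.
ears-2 summit, chrIV:390490-390519, minus strand: gccttgcgaaaagccGcgcggcgcattgcg
The mitochondrial alanine enzyme gene aars-1 (pooled rank 1180, signal value 33.7) had its summit in an intron, 2963 bp past the 5′ end; replicate 1 ranked it 1990 (14.5) and replicate 2 ranked it 28629 (4.05). In nars-1, the cytosolic asparagine enzyme gene (pooled rank 2008, 27.8), the summit was intronic at 1299 bp, ranked 4782 (9.98) and 3710 (14.7) by the replicates. The nars-1 ranks differed 1.29-fold, and those of aars-1 by 14.4-fold, so the former site was placed alike in both replicates and the latter rested on replicate 1.

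The gene for the cytosolic methionine enzyme, mars-1, showed the widest rank difference among the 18 members whose best pooled site was overlapped in both replicates. Its best pooled region (rank 2267, signal value 26.6) lay 235 bp upstream, where replicate 2 ranked 451 (32.3) and replicate 1 ranked 22539 (2.99), a ratio of 50.0. In replicate 2 taken alone this region would stand among the 887 strongest; in replicate 1 it would not.
mars-1 summit, chrIV:11635708-11635737, minus strand: ggagaattagcaagaAattccattgaactg
The mitochondrial methionine enzyme gene mars-2 had 8 pooled regions, the most of the 33 members, yet its best ranked only 8815. Its best replicate regions ranked 14015 and 21181 and were 4721 bp apart. For iars-1, the cytosolic isoleucine enzyme gene, the best replicate regions ranked 11422 and 5253 and were 4416 bp apart, with a pooled best of 9736. The best region of each replicate thus lay at different places in mars-2 and in iars-1, although the replicate 2 region of iars-1 was overlapped by a weaker replicate 1 region of rank 15121. For dars-2 the one region in any list was at rank 27264 in replicate 1.

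Below dars-1, ranks skipped to 5070 for qars-1, the glutamine enzyme gene, and the remaining members ran from there to 24784 at ears-1, the cytosolic glutamate enzyme gene. Within this lower group the replicates again differed: kars-1, the lysine enzyme gene, ranked 3632 in replicate 2 at its pooled site 266 bp into the gene. The replicate 1 region overlapping that site at its edge ranked 19430, with its summit 530 bp into the gene. Conversely vars-1 ranked 1589 in replicate 1 and had no region in replicate 2. These genes and cars-1 (the cytosolic cysteine enzyme gene, pooled rank 2091) were named after their values were seen.

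Over all protein-coding genes, 16.2% had a pooled region at the column 9 ceiling, and 18.6% of those in the length range. Divided by compartment, 8 of 14 cytosolic members had a pooled region at the column 9 ceiling, with ranks from 69 to 24784 and a median of 2444. Among mitochondrial members it was 2 of 12 (aars-1 and ears-2), with ranks from 1180 to 15530 and a median of 7889 over the 11 with a region. Of the 7 genes taken as single for their amino acid, 1 (hars-1) reached it, with a median rank of 5373. The mitochondrial and single counts were near the share over all genes. This grouping was not uniform. The only cysteine member, cars-1, was counted as cytosolic by its RefSeq product name and reached the ceiling. By contrast tars-1 and wars-1, which also have cytoplasmic product names, were counted as single. So was vars-1, although glp-4 is another valine enzyme gene outside the naming rule. The ranges overlapped almost fully: ears-1 and sars-1, both cytosolic, had the weakest best regions of all members with one. For several members the compartment comes from the number in the name, as for the human gene, and not from a RefSeq product name. By catalytic class, 4 of 16 class I genes (median rank 5858) and 7 of 17 class II genes (median 6610.5) reached the ceiling, so class II had more genes at the ceiling and the weaker median.

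Along the genes, candidate regions were densest just outside the annotated ends. The 33 windows covered 173 kb and held 105 pooled regions, 0 to 8 per gene with a median of 3, or 0.606 per kb, against 0.363 per kb for all protein-coding genes and 0.365 in the length range. The 105 are 103 distinct regions, since mars-2 ends 109 bp before yars-1 starts and 2 regions count for both. In the 500 bp upstream there were 1.21 regions per kb, against 0.421 for all genes, and in the 500 bp downstream 1.15 against 0.500. The first 500 bp of the genes had 0.606 against 0.323, the last 500 bp 0.727 against 0.384, and the stretch between 0.410 against 0.325.

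In both replicates the members exceeded all genes on both flanks. Upstream densities were 0.848 per kb in replicate 1 and 0.970 in replicate 2 (0.369 and 0.432 for all genes), and downstream densities 1.03 and 0.909 (0.443 and 0.491). In the first 500 bp of the genes the members had 0.727 against 0.294 in replicate 1 and 0.485 against 0.339 in replicate 2. In the last 500 bp replicate 1 had 0.364, near its value of 0.351 for all genes, whereas replicate 2 had 0.848 against 0.394. In the middle the members had 0.457 against 0.294 in replicate 1 and 0.336 against 0.311 in replicate 2. Counting error on these densities is large, since the upstream density rests on 14 regions in replicate 1 and 16 in replicate 2.

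**Figure D2:**
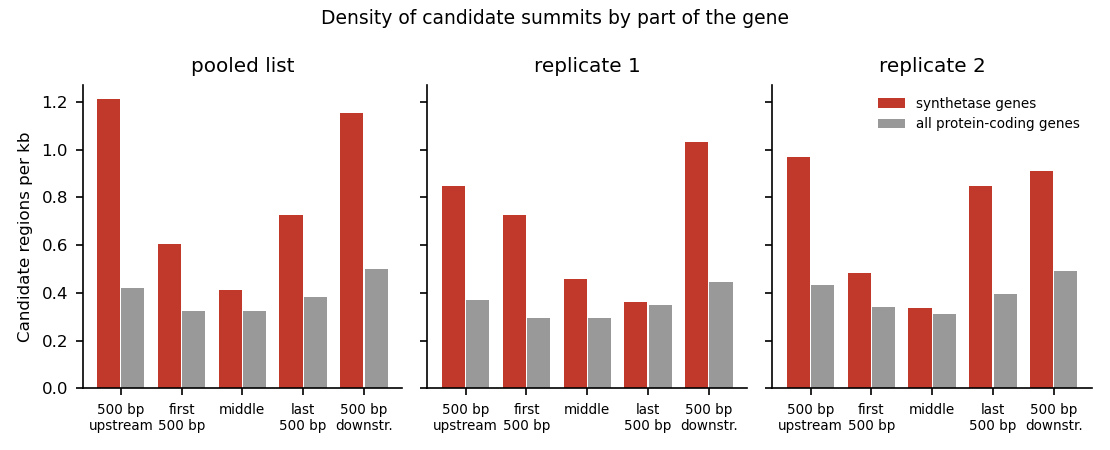
Candidate regions per kb (vertical axis, from 0) in 5 zones of the 33 synthetase genes and of all 19985 protein-coding genes, in the pooled list and each replicate; bars have no error because each is 1 density over a list. In the pooled list the synthetase bars reach 1.21 upstream and 1.15 downstream, against 0.421 and 0.500 for all genes.

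Within 500 bp of the annotated 5′ end, a pooled region was present at 23 of 33 members (69.7%), against 29.0% of all genes and 31.7% in the length range. In replicate 1 there were 20 such members, against 27.7% of all genes, and in replicate 2 there were 18, against 31.3%. Both replicates had one at 12 of 33 (36.4%), against 16.0% of all genes. An optimal peak was there for fars-3 alone (3.03%), against 1.57% of all genes. Each of the 32 best pooled regions was counted once, with another gene's 5′ end placed before the gene's own 3′ end. On that count 10 were at the gene's own 5′ end, 10 in the gene body and 7 at its own 3′ end. Another 4 were within 500 bp of another gene's 5′ end (dars-1, hars-1, lars-1 and ears-1), and these also lay within 500 bp of the member's own 3′ end. The remaining 1, that of fars-1, was at a small RNA gene or tRNA pseudogene.

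For 12 of 33 members (36.4%) the next non-overlapping protein-coding gene upstream ran in the same direction within 500 bp, against 18.1% of 19968 nuclear protein-coding genes with such a neighbour. For 6 members (18.2%) it ran the other way within 500 bp, against 9.21% of all. Among those with a neighbour in the same direction, vars-1 starts 196 bp after oma-2, an oocyte maturation gene, and rars-1, the cytosolic arginine enzyme gene, starts 65 bp after rpb-8, a subunit gene of the RNA polymerases. In such places a region upstream of a synthetase gene is also at the 3′ end of its neighbour, and the density upstream cannot be told apart from that at the neighbours' ends.

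**Figure D3:**
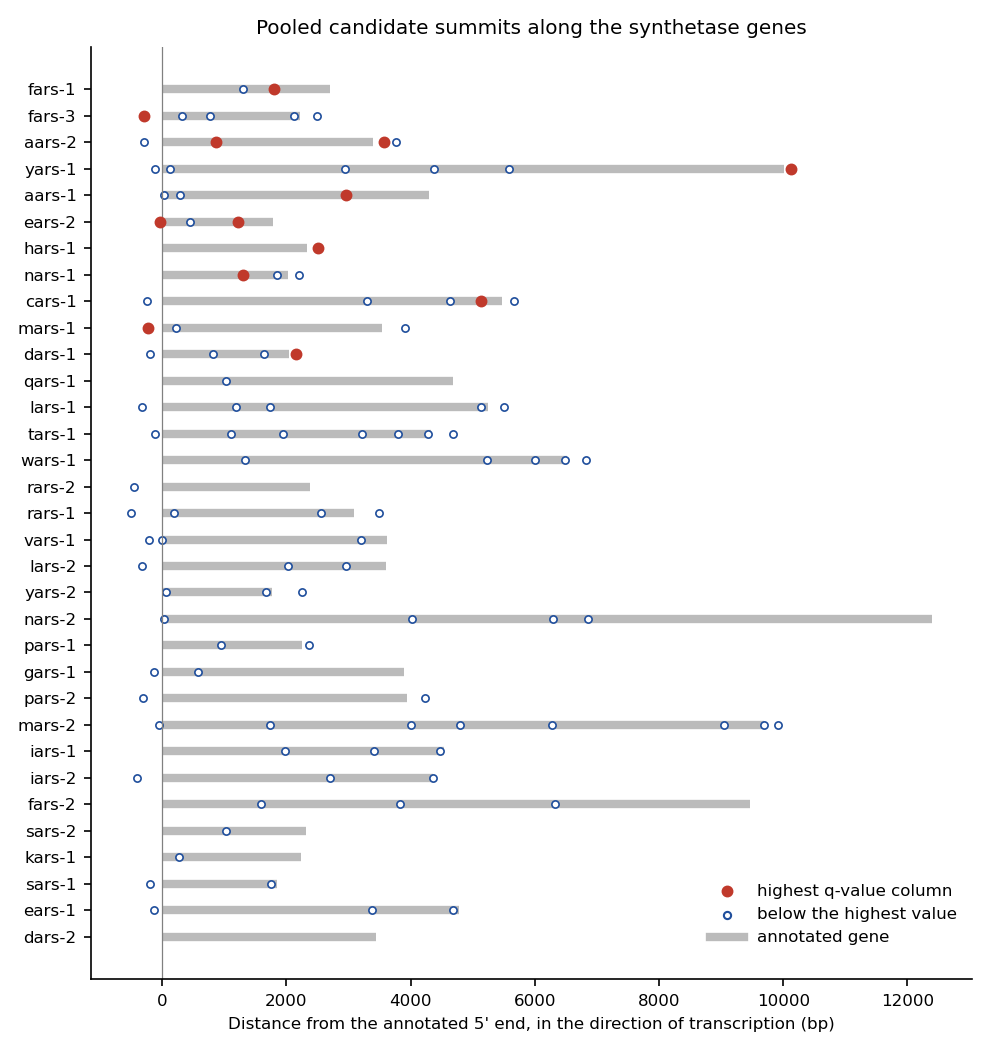
Summits of pooled candidate regions along each synthetase gene (grey bar, annotated gene; horizontal axis, bp from the annotated 5′ end in the direction of transcription), ordered by best pooled rank. Filled points are regions at the column 9 ceiling of 3.90 and open points are weaker ones; 11 genes have a filled point, at the start in fars-3, ears-2 and mars-1, within the gene in fars-1, aars-1, nars-1 and cars-1, and past the end in yars-1, hars-1 and dars-1, with aars-2 marked both within and past the end and ears-2 also within.

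How far the replicates placed a gene's signal at one site varied between members. Of the 32 best pooled regions, 18 were overlapped by at least 1 bp by a candidate region in both replicates, 5 in replicate 1 only, 5 in replicate 2 only and 4 in neither. At the 18 sites overlapped in both, ranks of the overlapping regions were less than 2-fold apart at 8. They were over 10-fold apart at 4 (fars-1, aars-1, ears-2 and mars-1). At mars-1 the replicate 1 region overlapped the site only at its edge. Replicate 2 placed the site higher within its own list at 11 of the 18 and replicate 1 at 7. Among the 30 members with regions in both replicates, the strongest region of each replicate lay within 150 bp of the other at 5 and over 1000 bp away at 16. Members are not replicates of one another, so these counts describe the lists only. No such counts over all protein-coding genes are given here, so whether they are particular to these members was not tested.

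The tRNA genes were compared by amino acid. Of 612 nuclear tRNA genes, 303 (49.5%) had the summit of an optimal peak within 500 bp of their 5′ end, so close neighbours can share a peak. By amino acid this share ran from 21.4% for phenylalanine (3 of 14 genes) to 84.6% for cysteine (11 of 13), with a median of 46.9% over 20 amino acids. Phenylalanine thus had the strongest synthetase regions and the smallest share of occupied tRNA genes of the 20. Its rank of 69 is that of the fars-1 region at a tRNA pseudogene. The fars-3 region, at 266, has its summit 45 bp past the 3′ end of zyg-9. Neither can be assigned to the synthetase gene alone. For cysteine the synthetase gene, cars-1, ranked 2091 and had no optimal peak. Glutamate (30 of 41 tRNA genes, 73.2%), aspartate (18 of 27, 66.7%) and alanine (22 of 34, 64.7%) followed, with best synthetase ranks of 1293, 2621 and 975. At the other end of the synthetase ranks, lysine (best rank 16941) had 26 of 46 tRNA genes occupied (56.5%) and serine (15530) 19 of 39 (48.7%).

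Over the 20 amino acids, Spearman's rho between the best synthetase rank and the share of occupied tRNA genes was 0.0632, given as a description of 20 points that come from the same lists. Between best synthetase rank and the number of tRNA genes it was 0.566, with amino acids of many tRNA genes tending to have weaker best synthetase regions. Amino acids with 2 or 3 synthetase genes had more than one chance at a strong region, which this measure does not correct for.

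**Figure D4:**
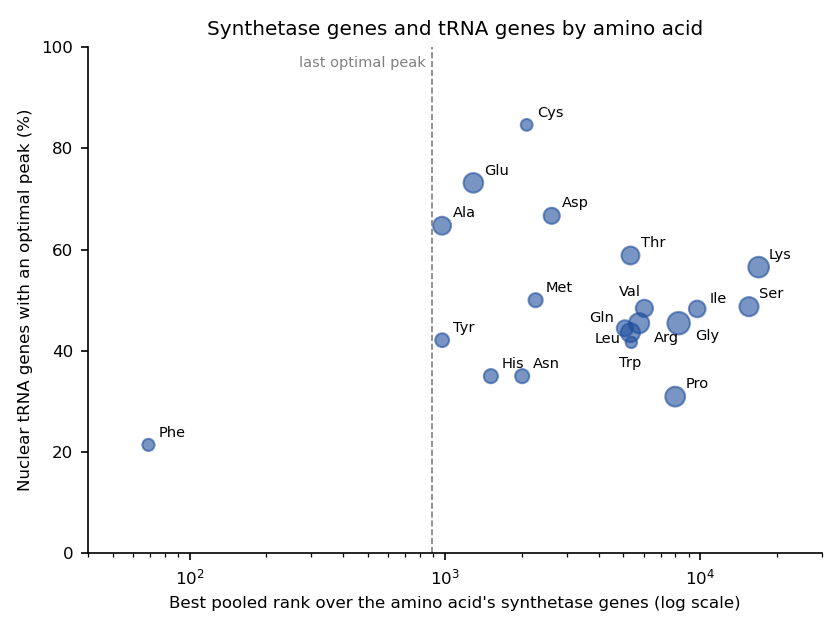
Share of nuclear tRNA genes with an optimal peak (vertical axis, %) against the best pooled rank over the synthetase genes of the same amino acid (horizontal log axis), for 20 amino acids; larger points have more tRNA genes and the dashed line is rank 887. Phenylalanine stands alone at rank 69, that of the fars-1 region at a tRNA pseudogene, with 21.4%. The others lie right of the line, up to cysteine at 84.6%.

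The 14 phenylalanine tRNA genes have 4 distinct sequences. Of the 10 identical copies, 1 (T28B4.t1, best optimal rank 241) had an optimal peak; of a pair of identical genes, 1 (Y39B6A.t9, rank 264) had one; and F32A6.t1, alone in its sequence, had one at rank 187. Reads from identical copies are told apart only by flanking sequence, and no source used here says how the authors treated reads with several places in the genome. A pooled candidate region was within 500 bp of the 5′ end at 8 of the 14 (57.1%). No synthetase gene had a tRNA gene within its 500 bp window: the closest was 46485 bp away (dars-2) and the median distance was 189293 bp. The nearest tRNA gene carried the gene's own amino acid at 2 members. Of annotated tRNA, snoRNA and snRNA genes and tRNA pseudogenes, only fars-1 had any in its window. Other classes of small RNA gene were not searched.

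Of 53 listed genes that make, modify, carry or sense tRNAs, 44 matched the annotation. An optimal peak was present at 5 of the 44, a pooled region at 37 and a region in both replicates at 33, against 4.54%, 46.3% and 39.2% of all genes. The 5 were rpac-19, a subunit gene shared by RNA polymerases I and III (rank 186, signal value 69.9), tgt-1, of the enzyme that places queuine in tRNA (rank 439, 50.6), eef-1A.2, of the elongation factor that brings charged tRNAs to the ribosome (rank 825, 38.7), and the pair rpc-25 and tftc-3, a polymerase III subunit and a TFIIIC subunit, which share 1 peak (rank 765, 39.8). By group, 3 of 11 genes of RNA polymerase III and its factors had an optimal peak, 1 of 10 delivery and sensing genes, 1 of 14 modification genes and 0 of 8 processing genes. The valine enzyme gene glp-4 had a best pooled rank of 2885 and a region in both replicates, ahead of the 6045 of vars-1.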

How the data were processed

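Peak lists for build ce11 were used; those for ce10 were not. Per the file headers and names, the authors made candidate lists from each replicate and from pooled reads and an IDR-thresholded list from these. The names describe the candidate lists as peaks and background used as input for IDR. The deposited column 7 is a score whose scale is not given, used only to rank regions within a list; the deposited column 9 is −log10 of a q-value, and column 10 gives the summit. No source used here names the aligner, peak caller or IDR threshold. Genes came from Ensembl release 115, with RefSeq symbols and genome. Summits in the gene or within 500 bp were assigned with Python 3.11.15, pandas 2.3.3, numpy 2.4.6 and scipy 1.17.1 and drawn with matplotlib 3.10.9; in a check on simulated data the step recovered 200 of 200 placed genes among 19985. Named genes were members with an optimal peak, the 8 best pooled ranks, members without a pooled region, and up to 5 with the most discordant replicates. The members and lists were chosen with earlier results of these data known. No test across genes was run. The labels call the replicates biological and do not say whether they were separate cultures.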

Additional observations from a re-analysis of the deposited data

How the results depend on the processing

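The 2 members with an optimal peak became 1 with a window of 250 bp (fars-1). They became 1 with summits counted only within 500 bp of the 5′ end (fars-3). They also became 1 without regions at tRNA, snoRNA or snRNA genes (fars-3). In each case this was 3.03% of members, against 3.68%, 1.57% and 3.31% of all genes. With a window of 1000 bp there were 3 (9.09%, against 5.41% of all genes), nars-1 being added. Leaving out a replicate and taking the 887 strongest regions of the other gave 1 to 3. Without replicate 2 only fars-3 was counted, against 4.37% of all genes. Without replicate 1 fars-1, fars-3 and mars-1 were counted, against 4.34% of all genes. The 32 members with a pooled region ranged from 23 to 32 over all alternatives. The 23 came from counting only the 5′ end, against 29.0% of all genes. Without replicate 1 there were 31 (52.5% of all genes) and without replicate 2 there were 32 (51.0%). The 30 with a region in both replicates fell to 12 when only the 5′ end counted, against 16.0% of all genes. They fell to 20 when each list was cut at its middle rank, against 25.3% of all genes. Counting Ensembl names only, added after the data were seen, gave 2, 31 and 29, against 4.54%, 46.3% and 39.2% of all genes. No paired analysis was possible because there is 1 group and no test. Depth is unknown, so absence from a list does not show absence of AMA-1. The candidate lists include background, so a region in them does not by itself show AMA-1.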
